A study of Mus musculus with 12 samples.

Results

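The 39 Hox genes of the mouse, found by name in a table of 55385 genes, were followed through 12 RNA-seq libraries of sorted spermatogonia. They lie in 4 clusters, with 11 genes in Hoxa, 10 in Hoxb, 9 in Hoxc and 9 in Hoxd, and every gene named Hoxa, Hoxb, Hoxc or Hoxd followed by its paralog number was taken. Undifferentiated spermatogonia (Aundiff) and early differentiating spermatogonia (Adiff) were sorted from testes of wild-type (WT) C57BL/6 mice aged 2 to 3 months, as E-Cadherin+ CD9high KIT- and E-Cadherin+ CD9medium KIT+ cells. Aundiff were also taken from C57BL/6 X FVB/NJ mice that lack Ring1, a gene for a ubiquitin ligase of Polycomb repressive complex PRC1. Among these, PRC1cKO mice had the genotype Ring1-/-, Rnf2 F/-, Ddx4-Cre, so that the second ligase, Rnf2, was to be removed in germ cells, where Ddx4 drives the recombinase. Their littermates, PRC1ctrl, were Ring1-/-, Rnf2 F/+, Ddx4-Cre, and so also lacked Ring1 and carried the recombinase. The PRC1 mice were either untreated, at 2 months of age, or had received about 30 daily injections of Win18446 from 1 month of age (40 μg/μl in 50 μl DMSO) and were sampled 24 h after the last. Each of the 6 groups held 2 libraries from separate pools of cells.

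Hox genes encode homeodomain transcription factors that give cells their position along the body axis of the embryo. Within a cluster they are ordered by paralog number, and low numbers act towards the head and high numbers towards the tail. Polycomb repressive complexes are best known for keeping these clusters silent where they are not needed. PRC1 places ubiquitin on histone H2A, while PRC2 methylates histone H3 on lysine 27. Win18446 inhibits the synthesis of retinoic acid, the signal that starts spermatogonial differentiation and that is also a classic inducer of Hox genes in embryonic cells.

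On GRCm38 the Hoxa cluster lay on the minus strand of chromosome 6, and Hoxb ran from 96194316 to 96368256 on chromosome 11, Hoxc from 102921103 to 103036852 on chromosome 15 and Hoxd from 74668310 to 74765142 on chromosome 2. The last 3 clusters are on the plus strand. The genes called in any comparison were Hoxa9 (ENSMUSG00000038227, 52223100 to 52231089), Hoxa10 (ENSMUSG00000000938, 52231197 to 52240854), Hoxb2 (ENSMUSG00000075588, 96350525 to 96354012), Hoxb3 (ENSMUSG00000048763, 96323326 to 96347930), Hoxb4 (ENSMUSG00000038692, 96318267 to 96321638), Hoxb7 (ENSMUSG00000038721, 96286623 to 96290162), Hoxb9 (ENSMUSG00000020875, 96271457 to 96276595), Hoxc4 (ENSMUSG00000075394, 103018934 to 103036852) and Hoxc9 (ENSMUSG00000036139, 102976439 to 102985099). All 39 genes were protein-coding in the gencode vM21 annotation, and all had its coordinates in the deposited table.

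Before the values, the 250 bases upstream of RefSeq transcription starts (GRCm38.p6) are shown for the Hox genes that the comparisons below turn on and that had such a window. They are Hoxa7, Hoxa9 and Hoxa10, whose levels were higher in the PRC1cKO libraries, and Hoxb4 and Hoxc4, which were lower in Adiff. Of the 39 genes, 22 had a window, and Hoxb2, Hoxb3, Hoxb7, Hoxb9 and Hoxc9 had none. Capitals mark CG dinucleotides, which CpG islands hold at high density.
Hoxa7, chr6:52218574-52218823, minus strand: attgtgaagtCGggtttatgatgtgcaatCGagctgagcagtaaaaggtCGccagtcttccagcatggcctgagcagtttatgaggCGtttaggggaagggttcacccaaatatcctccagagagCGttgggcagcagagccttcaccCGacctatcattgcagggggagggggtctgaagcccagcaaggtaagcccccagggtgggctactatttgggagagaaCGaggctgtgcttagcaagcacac
Hoxa9, chr6:52227371-52227620, minus strand: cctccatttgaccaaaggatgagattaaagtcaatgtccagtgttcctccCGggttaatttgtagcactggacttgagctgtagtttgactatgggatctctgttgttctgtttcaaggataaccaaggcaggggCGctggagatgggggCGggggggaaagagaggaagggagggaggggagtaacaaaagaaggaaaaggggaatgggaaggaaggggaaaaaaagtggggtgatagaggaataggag
Hoxa10, chr6:52234940-52235189, minus strand, the start nearer to Hoxa9: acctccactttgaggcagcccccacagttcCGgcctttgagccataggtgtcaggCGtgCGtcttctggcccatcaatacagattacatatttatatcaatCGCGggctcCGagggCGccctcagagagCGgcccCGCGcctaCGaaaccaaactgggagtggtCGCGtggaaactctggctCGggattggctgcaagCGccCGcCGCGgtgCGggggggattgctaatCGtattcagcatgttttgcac
Hoxa10, chr6:52240855-52241104, minus strand, the start nearer to Hoxa11: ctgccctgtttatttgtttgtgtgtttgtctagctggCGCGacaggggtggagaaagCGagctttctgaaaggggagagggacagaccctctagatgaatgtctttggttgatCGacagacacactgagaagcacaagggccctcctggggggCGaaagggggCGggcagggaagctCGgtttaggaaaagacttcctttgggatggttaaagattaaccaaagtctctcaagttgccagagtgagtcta
Hoxb4, chr11:96318017-96318266, plus strand: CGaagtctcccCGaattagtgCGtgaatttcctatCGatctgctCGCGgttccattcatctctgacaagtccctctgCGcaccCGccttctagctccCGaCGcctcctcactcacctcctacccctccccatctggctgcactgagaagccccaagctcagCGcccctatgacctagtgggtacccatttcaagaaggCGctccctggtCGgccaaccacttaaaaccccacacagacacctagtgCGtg
Hoxc4, chr15:103034145-103034394, plus strand: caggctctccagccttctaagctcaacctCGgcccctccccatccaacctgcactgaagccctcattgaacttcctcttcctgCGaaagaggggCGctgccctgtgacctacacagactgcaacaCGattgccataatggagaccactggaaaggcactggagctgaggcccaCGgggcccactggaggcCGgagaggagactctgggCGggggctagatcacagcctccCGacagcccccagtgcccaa

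The 24 Hox windows (2 each for Hoxa10 and Hoxd11) held 2 to 35 CG dinucleotides with a median of 12.5, against a median of 6 over all 32851 windows. At least 10 CG dinucleotides were found in 15 of the 24 windows and in 37.8% of all windows. The Hoxa9 window above held 3, and the Hoxa10 windows held 20 and 7, so CG density differed among these windows. The letters AGGTCA, a half-site of retinoic acid receptors, were present on either strand in 6 of the 24 windows (25%) and in 14.02% of all windows. Both the Hoxb4 and the Hoxc4 window were among these, with the motif on the minus strand (tgacct in the lines above). The Hoxa7, Hoxa9 and Hoxa10 windows held no AGGTCA. The letters TGATNNAT, where PBX and HOX proteins can bind side by side, occurred on either strand in 4 of the 24 windows and in 7.68% of all windows, and TATAAA on the coding strand in 1 and in 7.59%. These matches describe letters only.

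The deposited unit was TPM, a share of transcripts that is corrected for transcript length, so levels can be compared between genes of a library. Read counts were not used here, so depth and counting error are unknown and the precision of a mean rests on its 2 libraries. The untreated PRC1 libraries were made by the Smart-Seq2 method from about 7000 cells each. The WT and Win18446 libraries were made with a stranded kit for polyadenylated RNA from about 100000 to 150000 cells. Treatment and library method therefore cannot be told apart, and levels of untreated and treated groups are given side by side only. Libraries had 12422 to 16599 genes at a TPM of at least 1, mitochondrial genes held 12.5% to 16.7% of the TPM in the 4 Smart-Seq2 libraries and 4.28% to 6.69% in the other 8, and the 50 highest genes held 19.8% to 39.2%.

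The deleted genes were looked at first. Ring1 was at 0.03 to 0.25 TPM in the 8 libraries of Ring1-/- mice and at 8.61 to 19.9 TPM in WT. Rnf2 was at 28.3 and 47.6 TPM in the untreated libraries labelled PRC1ctrl and at 56.7 and 67.5 TPM in those labelled PRC1cKO. After Win18446 it was at 78.1 and 67.2 TPM under the label PRC1ctrl and at 86.2 and 93.1 TPM under the label PRC1cKO. Rnf2 was thus not lower in either pair. Gene-level TPM does not separate transcripts that lack the floxed exon, so this is no check of the deletion, and PRC1cKO below means the libraries so labelled.

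All 39 Hox genes were low on the scale of these libraries. The highest value was 20.3 TPM, for Hoxb7 in a PRC1ctrl library after Win18446. A group mean of at least 5 TPM in at least 1 group was reached by 10 genes, a group mean of at least 1 TPM by 26, and 11 genes stayed below 1 TPM in every library. The 11 silent or near-silent genes were 6 of Hoxd, 3 of Hoxa (Hoxa2, Hoxa5 and Hoxa6) and 2 of Hoxc, and none of Hoxb. Hoxa6 was listed at 0 in 11 of the 12 libraries. Hoxb7 and Hoxd8 were the only members with at least 1 TPM in all 12. Over the 39 genes, the log2(TPM + 1) values of the 2 libraries of a group correlated at 0.884 to 0.977 (Pearson, across genes, which are not independent replicates), except in untreated PRC1ctrl, where the value was 0.777. There, Hoxc4 was at 1.34 and 10.7 TPM and Hoxb2 at 0.08 and 5.72 TPM, so no level of these genes can be given for that group.

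**Figure D1:**
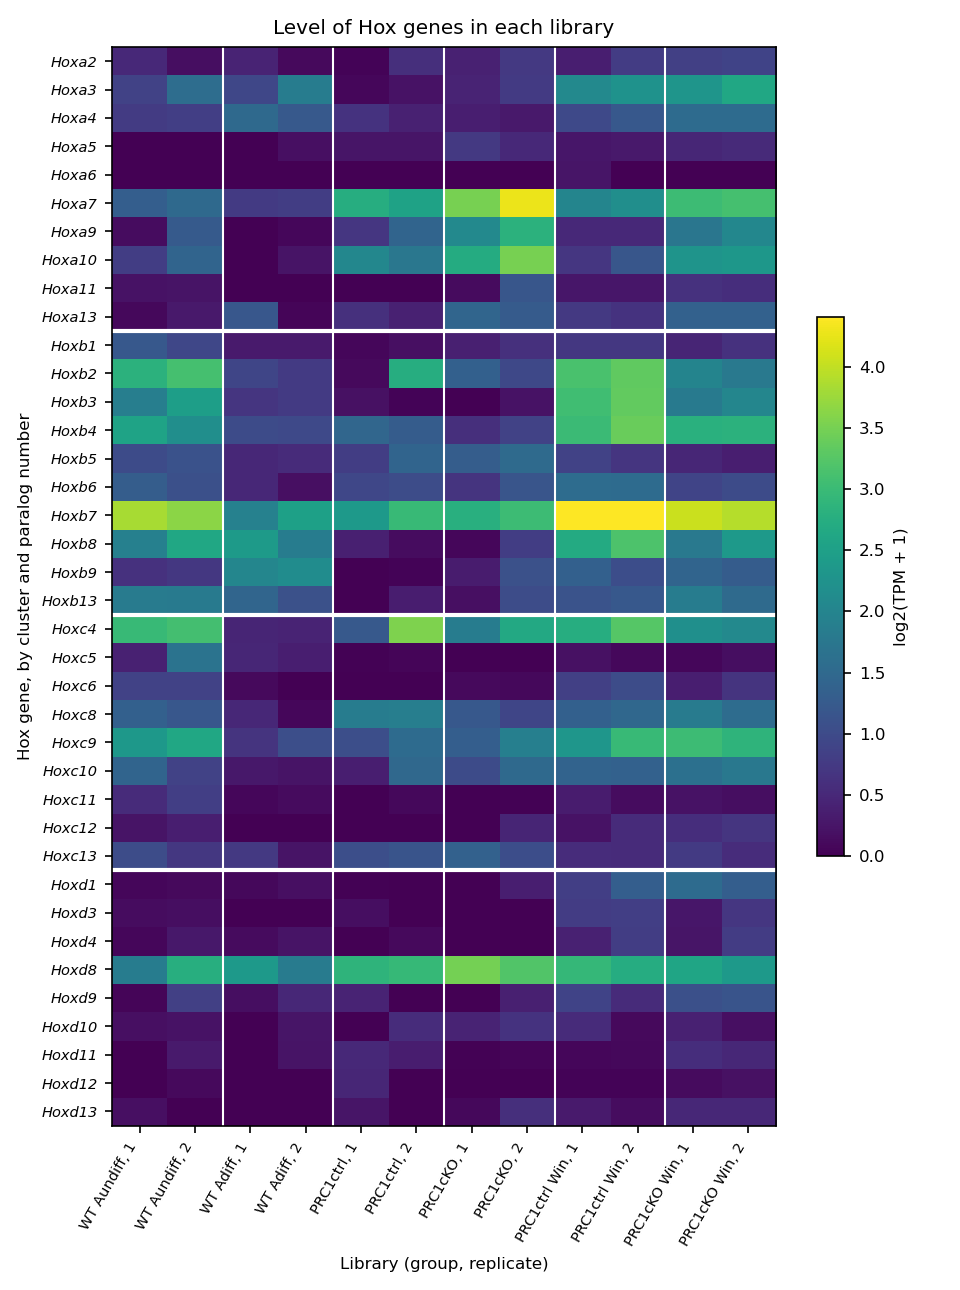
Level of 38 Hox genes in the 12 libraries as log2(TPM + 1), with genes as rows by cluster and paralog number and libraries as columns by group and replicate. Hoxb7 and Hoxd8 are visible in every column, 6 of the 9 Hoxd genes stay below 1 TPM throughout, and Hoxa7 is highest in the untreated PRC1cKO libraries, at 10.3 and 18.4 TPM.

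The clusters contributed unequally to the sum of the 39 genes. In WT Aundiff the sum was 69.4 ± 8.29 TPM (SD, n = 2), of which Hoxb held 57.6% and 51.5% in the 2 libraries, Hoxc 26.8% and 25.9%, and Hoxa 10.6% and 12.6%. Among the high members of WT Aundiff, Hoxb7 (12.4 ± 1.21 TPM) stood above Hoxc4 (7.18 ± 0.460) and Hoxb2 (6.88 ± 1.10), 2 genes whose values overlapped. Hoxc9 (4.66 ± 0.742), Hoxd8 (4.22 ± 2.28), Hoxb4 (4.20 ± 0.955), Hoxb8 (3.995 ± 1.69) and Hoxb3 (3.61 ± 1.29) followed and did not differ beyond their spread (SD, n = 2 for each). In untreated PRC1cKO the order was another one, with Hoxa7 (14.4 ± 5.72 TPM), Hoxd8 (9.27 ± 1.38) and Hoxa10 (7.94 ± 3.39) at the top. Hoxa then held 44.2% and 51.8% of the summed Hox TPM, against 34.1% and 20.1% in the 2 PRC1ctrl libraries.

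**Figure D2:**
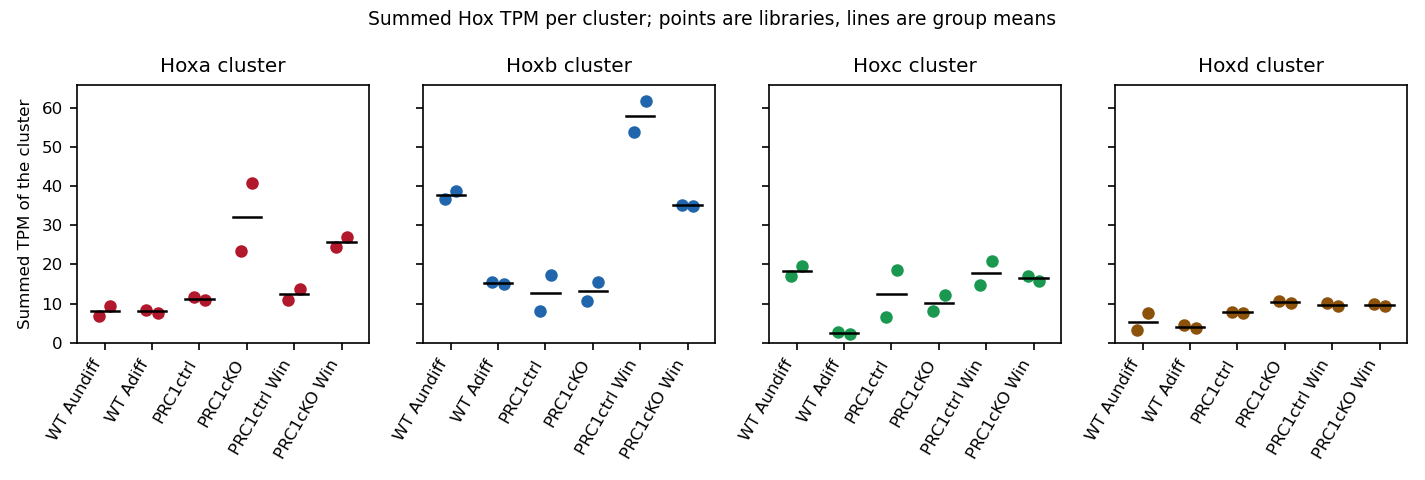
Summed TPM of each Hox cluster (vertical axis) in the 6 groups, where points are the 2 libraries and lines are group means. The Hoxa sum is higher in both PRC1cKO pairs than in their PRC1ctrl pairs, and the Hoxb sum is lower in WT Adiff than in WT Aundiff and lower in PRC1cKO than in PRC1ctrl after Win18446.

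The first comparison asked how the clusters change when WT Aundiff become Adiff. Hox RNA was lower in Adiff, mainly from Hoxb and Hoxc, while the Hoxa sum was alike. The summed TPM was 63.5 and 75.3 in Aundiff and 31.0 and 28.6 in Adiff, and the groups did not overlap. For Hoxb it was 36.6 and 38.8 in Aundiff and 15.5 and 15.02 in Adiff, and for Hoxc 17.0 and 19.5 against 2.78 and 2.22. For Hoxa the values were 6.76 and 9.46 in Aundiff and 8.24 and 7.70 in Adiff, which overlapped. In bulk samples, fewer cells of a type and less RNA per cell cannot be told apart.

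Of the 39 genes, 17 had at least 1 TPM in at least 2 of the 4 libraries and were tested (limma on log2(TPM + 1), two-sided, Benjamini-Hochberg over all 15470 genes tested). A gene was called at an adjusted p under 0.05 and a log2 fold change beyond 1 in either direction, and these fold changes understate the change of genes near 1 TPM. Of the 17, 1 was called higher and 6 lower in Adiff, where 11.1% and 9.24% of all tested genes were called. Over all members, both Adiff libraries were below both Aundiff libraries for 20 genes (51.3%) and above them for 3 (7.69%), against 22% and 30.3% of the 28455 genes with any TPM. The median log2 fold change without a filter was -0.80 for Hoxb, -0.81 for Hoxc, 0.02 for Hoxa and -0.08 for Hoxd, against 0.04 for all genes. With median-of-ratios scaling of the TPM, the median of the 15470 tested genes moved from 0.15 to -0.01, and that of Hoxa turned to -0.01.

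Among the low paralog numbers, which pattern the hindbrain and neck, 4 genes fell. Hoxb2 was at 6.10 and 7.66 TPM in Aundiff and at 0.90 and 0.69 TPM in Adiff. Hoxc4 was at 6.85 and 7.50 TPM and then at 0.38 and 0.35 TPM. Neither gene had overlapping groups, and their log2 fold changes were -2.13 ± 0.26 (SE, limma adjusted p = 0.00265) and -2.58 ± 0.25 (limma adjusted p = 0.00151), the latter being the largest among tested Hox genes. Hoxb3, which acts with its paralogs in the hindbrain and pharynx, was at 2.70 and 4.52 TPM in Aundiff and at 0.60 and 0.69 TPM in Adiff. Hoxb4, known as a factor that expands blood stem cells, was at 4.87 and 3.52 TPM and then at 1.02 and 0.97 TPM. The groups were separate for both, with log2 fold changes of -1.46 ± 0.30 (limma adjusted p = 0.0133) and -1.37 ± 0.27 (limma adjusted p = 0.0113).

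In the same range of paralog numbers no Hoxa gene was called. Hoxa4 was at 0.70 and 0.77 TPM and then at 1.85 and 1.34 TPM, without overlap and not called (log2 fold change 0.57, limma adjusted p = 0.148). Hoxa3, needed for the thymus and parathyroid, was at 0.83 and 1.97 TPM in Aundiff and at 0.91 and 2.60 TPM in Adiff, which overlapped. Hoxa2 was under 0.50 TPM in all 4 libraries and was not tested.

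Among the central and high paralog numbers, directions differed between clusters. Hoxb7, the highest member in WT Aundiff, was at 13.2 and 11.5 TPM there and at 2.84 and 4.66 TPM in Adiff. Hoxc9, which sets the identity of thoracic motor neurons, was at 4.13 and 5.18 TPM and then at 0.58 and 1.09 TPM. Both fell without overlap, by 1.52 and by 1.63 on the log2 scale (limma adjusted p = 0.00725 and 0.00751). Hoxb9 went the other way, with 0.55 and 0.65 TPM in Aundiff and 3.09 and 3.42 TPM in Adiff, which was 1.41 ± 0.26 on the log2 scale (limma adjusted p = 0.00899). It was the only called member that was higher. Hoxc8, a gene of the thoracic skeleton, was at 1.55 and 1.28 TPM and then at 0.41 and 0.05 TPM, with a log2 fold change of -0.99 that fell just short of the fold limit (limma adjusted p = 0.0441). It was called lower after median-of-ratios scaling. Hoxb8 and Hoxd8 overlapped between the groups. Hoxa7 was at 1.5 and 1.83 TPM and then at 0.69 and 0.74 TPM, without overlap, and was not called (limma adjusted p = 0.110). Hoxb5, Hoxb6 and Hoxb13 were lower in both Adiff libraries and not called. Of the members under the filter, Hoxb1, Hoxc6, Hoxc10, Hoxc11, Hoxc12 and Hoxd3 were also lower in both.

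Hoxa9, Hoxa10 and Hoxa11 were low in Aundiff and lower in both Adiff libraries. Hoxa9, a regulator of blood progenitors, was at 0.11 and 1.39 TPM in Aundiff and at 0 and 0.05 TPM in Adiff. Hoxa10, needed in the uterus and for descent of the testis, was at 0.74 and 1.69 TPM and then at 0 and 0.18 TPM, and Hoxa11 at 0.16 and 0.18 TPM and then at 0 in both. Hoxa13 overlapped, at 0.07 and 0.23 TPM and then at 1.29 and 0.04 TPM. None of these 4 reached the filter, so none was tested. The sorted populations had the markers of their labels. The 4 markers of undifferentiated spermatogonia summed to 362 to 404 TPM in Aundiff and 44.2 to 53.4 TPM in Adiff, and all 4 were called lower. The 3 markers of differentiating spermatogonia summed to 68.4 to 78.8 TPM and 1008 to 1069 TPM, and all 3 were called higher. Markers of other testis cells also differed, and their part in the Hox result was not tested. Macrophage markers summed to 69.3 to 115 TPM in Aundiff and 33.6 to 39.2 TPM in Adiff, with 1 of 6 called lower, and Sertoli cell markers to 60.3 to 66.9 TPM and 37.4 to 39.1 TPM, with 1 of 8 called lower. Endothelial markers summed to 6.4 to 15.3 TPM and 3.58 to 5.10 TPM, and spermatid markers to 763 to 840 TPM and 521 to 706 TPM, with none called. Leydig cell markers (21.0 to 41.5 TPM and 10.4 to 41.0 TPM) and peritubular myoid markers (7.17 to 46.9 TPM and 8.72 to 17.7 TPM) overlapped. Leaving out 1 WT library changed which genes could be tested. Hoxb2, Hoxb3 and Hoxc4 were under 1 TPM in both Adiff libraries, so without either Aundiff library they missed the filter by construction. Hoxb9 was under 1 TPM in both Aundiff libraries and missed it in the same way without either Adiff library. These losses follow from the filter and do not measure how stable the differences were. Without the first Aundiff library, Hoxb4 was still tested and was not called.

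The second comparison asked what differed in untreated Aundiff between PRC1cKO and PRC1ctrl. Most Hoxa genes were higher in both PRC1cKO libraries, the low Hoxa3 and Hoxa5 among them, but no Hox gene was called with this design. The Hoxa sum was 11.6 and 10.9 TPM in PRC1ctrl and 23.4 and 40.8 TPM in PRC1cKO, without overlap. The sums of Hoxb (8.19 and 17.3 TPM against 10.8 and 15.6 TPM) and Hoxc (6.45 and 18.5 TPM against 8.11 and 12.3 TPM) overlapped. Hoxd summed to 7.81 and 7.63 TPM against 10.7 and 10.01 TPM, and most of this was Hoxd8.

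Of the 39 genes, 15 were tested and none was called (limma, Benjamini-Hochberg over 13953 genes), where 0.222% of all tested genes were called higher and 1.94% lower. An unadjusted limma p under 0.05 was found for 1985 of the 13953 genes tested. Of the 15 Hox genes, 4 had one, namely Hoxa7, Hoxa9, Hoxa10 and Hoxa13, and the smallest adjusted p of the 15 was 0.286. Both PRC1cKO libraries were above both PRC1ctrl libraries for 12 members (30.8%) and below them for 7 (17.9%), against 21.1% and 14.6% of the 32181 genes with any TPM. By cluster, 8 of 11 Hoxa genes (72.7%) were above and 1 below, 2 of 10 Hoxb genes above and 1 below, 1 of 9 Hoxc genes above and 2 below, and 1 of 9 Hoxd genes above and 3 below. The median log2 fold change without a filter was 0.55 for Hoxa, 0.20 for Hoxb, 0.10 for Hoxc and -0.02 for Hoxd, against 0.04 for all genes. Median-of-ratios scaling moved the median of all tested genes from 0.22 to -0.04. The medians without a filter were then 0.47 for Hoxa, 0.007 for Hoxb, -0.05 for Hoxc and -0.05 for Hoxd, against -0.01 for all genes. On that scale 10 members were above and 7 below, against 15.6% and 19.5% of the genes with any TPM. By cluster, 7 Hoxa genes were above and 0 below, and 2 Hoxb genes above and 2 below. Of Hoxc 1 gene was above and 2 below, and of Hoxd 0 were above and 3 below.

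Hoxa7, which acts in the thoracic region of the embryo, was at 5.70 and 4.85 TPM in PRC1ctrl and at 10.3 and 18.4 TPM in PRC1cKO. Hoxa9 was at 0.63 and 1.67 TPM and then at 3.24 and 6.11 TPM. Hoxa10 was at 3.11 and 2.38 TPM and then at 5.54 and 10.3 TPM. In all 3 genes both PRC1cKO values exceeded both PRC1ctrl values, and the second PRC1cKO library was well above the first. The log2 fold changes were 1.24 ± 0.45, 1.40 ± 0.49 and 1.21 ± 0.47 (SE), and their limma adjusted p-values were 0.299, 0.286 and 0.332. With the variance estimated over all 12 libraries, Hoxa7 and Hoxa10 were called (limma adjusted p = 0.0167 and 0.0462). That fit shares the variance of a gene across both library methods. The median SE over tested genes was 0.424 in the untreated fit, against 0.166 after Win18446 and 0.220 in WT. These 2 calls therefore lean on the spread of libraries made by the other method. Hoxa13, which shapes the digits and the genital tubercle, was at 0.53 and 0.33 TPM in PRC1ctrl and at 1.70 and 1.41 TPM in PRC1cKO (limma adjusted p = 0.313). Hoxa11 was at 0.01 and 0 TPM and then at 0.10 and 1.27 TPM and was not tested. Only the WT and Win18446 libraries are described as stranded, so antisense reads may enter the TPM of a gene here, which was not tested. On the other strand, Hoxa7 shares 20.4% of its exonic bases with Hoxaas3 (6.36 and 1.53 TPM, then 4.17 and 3.04 TPM). Hoxa11 shares 35.0% with Hoxa11os (0.41 and 0 TPM, then 1.60 and 1.43 TPM), and Hoxa9 and Hoxa10 share none.

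Hoxa2, Hoxa3, Hoxa4 and Hoxa5 were below 1 TPM in the same libraries. Hoxa3 was at 0.05 and 0.16 TPM and then at 0.35 and 0.69 TPM, and Hoxa5 at 0.19 and 0.19 TPM and then at 0.67 and 0.43 TPM. Hoxa2 overlapped between the groups. None of these had enough libraries at 1 TPM for the test. Hoxa4 was the only Hoxa gene with both values lower, at 0.56 and 0.32 TPM and then at 0.30 and 0.23 TPM. Hoxa3 shares 25.4% of its exonic bases with genes on the other strand, and Hoxa5 shares none. Among those genes, Hoxaas2 (0.31 and 0.26 TPM, then 0.62 and 0.66 TPM) and 5730596B20Rik (0 in both, then 0.07 and 0.54 TPM) were higher. Hoxaas3 overlapped, and Gm29430 was at 0 in both groups. Whether antisense reads entered the Hoxa3 values was not tested.

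Outside Hoxa, the largest negative difference that did not rest on 1 library was that of Hoxc8, with 2.62 and 2.68 TPM in PRC1ctrl and 1.32 and 0.90 TPM in PRC1cKO (log2 fold change -0.80, limma adjusted p = 0.429). Hoxb4 was at 1.73 and 1.43 TPM and then at 0.51 and 0.82 TPM (log2 fold change -0.64, limma adjusted p = 0.475). Hoxd8 was at 6.30 and 6.77 TPM and then at 10.2 and 8.29 TPM (log2 fold change 0.44, limma adjusted p = 0.660). None of these differences passed the test. Hoxb7, Hoxc9 and Hoxc4 overlapped between the groups. Hoxb3 was at 0.16 TPM or below in all 4 libraries, and Hoxb8 at 0.74 TPM or below. Hoxb9 was at 0.01 and 0.03 TPM and then at 0.26 and 1.13 TPM and was not tested.

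Several marker lists moved with the PRC1cKO label in the untreated libraries, and their part in these values was not tested. Markers of undifferentiated spermatogonia summed to 301 to 378 TPM in PRC1ctrl and 108 to 120 TPM in PRC1cKO, with 1 of 4 called. That 1 was Nanos3, at 286 and 349 TPM and then at 92.4 and 80.6 TPM, while Zbtb16 (4.93 and 12.5 TPM, then 5.08 and 14.2 TPM) and Gfra1 (7.18 and 14.97 TPM, then 8.83 and 23.6 TPM) overlapped. Markers of differentiating spermatogonia summed to 107 to 176 TPM and 281 to 376 TPM, with none of 3 called. The 6 Leydig cell markers summed to 1.04 to 1.21 TPM and 21.0 to 48.0 TPM, where 6 of 6 were above in both libraries and 1 was called. Macrophage markers summed to 9.04 to 120 TPM and 141 to 707 TPM, mostly Cd74, while Csf1r was at 0 in both PRC1ctrl libraries and at 0.11 and 0.13 TPM in PRC1cKO. Spermatid markers summed to 751 to 1748 TPM and 57.8 to 64.1 TPM, with 4 of 6 called lower. Sertoli cell markers (22.8 to 57.2 TPM and 43.9 to 57.0 TPM) and peritubular myoid markers (1.05 to 3.01 TPM and 1.21 to 4.10 TPM) overlapped. Endothelial markers summed to 1.06 to 1.29 TPM and 2.44 to 3.70 TPM, with none of 4 called.

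**Figure D3:**
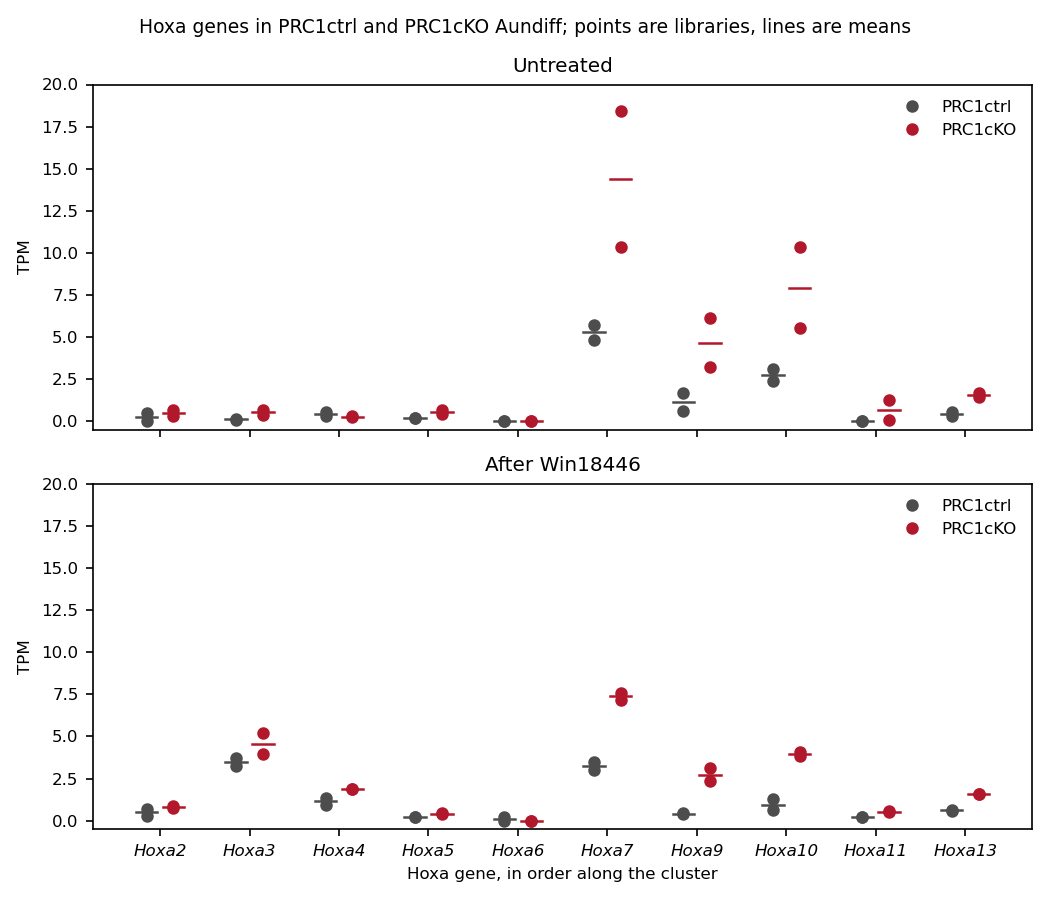
TPM of 10 Hoxa genes (horizontal axis, in order along the cluster) in PRC1ctrl and PRC1cKO Aundiff, untreated above and after Win18446 below, with points for libraries and lines for group means. Hoxa7, Hoxa9, Hoxa10 and Hoxa13 are higher in both PRC1cKO libraries in each panel, and Hoxa2, Hoxa5 and Hoxa6 stay below 1 TPM in both panels.

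The third comparison repeated this after Win18446, when differentiation is held back and Aundiff accumulate. Hoxa9 and Hoxa10 were higher and Hoxb2 and Hoxb3 were lower in PRC1cKO, so called genes of Hoxa were all higher and called genes of Hoxb all lower. The Hoxa sum was 11.02 and 13.7 TPM in PRC1ctrl and 24.5 and 26.9 TPM in PRC1cKO, and the Hoxb sum was 53.9 and 61.8 TPM and then 35.3 and 35.1 TPM, both without overlap. The sum of all 39 genes was 89.7 and 106 TPM in PRC1ctrl and 86.7 and 87.0 TPM in PRC1cKO. After median-of-ratios scaling it was 59.1 and 68.7 against 68.3 and 71.7 and overlapped, while the Hoxb sum did not overlap on that scale either (35.5 and 40.1 against 27.5 and 29.2). Hoxa held 12.3% and 13.0% of the Hox TPM in PRC1ctrl and 28.2% and 30.9% in PRC1cKO. The TPM sums of Hoxc and Hoxd overlapped. After scaling the Hoxc sums still overlapped, while the Hoxd sums of 6.12 and 6.64 in PRC1ctrl and 7.31 and 8.09 in PRC1cKO did not.

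Of the 39 genes, 22 were tested, 2 were called higher and 2 lower (limma, Benjamini-Hochberg over 16521 genes), where 1.27% of all tested genes were called higher and 10.9% lower. Both PRC1cKO libraries were above both PRC1ctrl libraries for 17 members (43.6%) and below them for 12 (30.8%), against 14.5% and 40.4% of the 32489 genes with any TPM. After median-of-ratios scaling these numbers were 22 and 8 members, against 26.7% and 29.3% of the genes, and the median of all tested genes moved from -0.19 to 0.03. Of the Hoxa genes, 9 of 11 were above and 0 below, and of the Hoxb genes 1 of 10 was above and 8 below (2 above and 6 below after scaling). Of the Hoxc genes 3 of 9 were above and 2 below, and of the Hoxd genes 4 of 9 and 2. After scaling these were 5 and 2 for Hoxc and 5 and 0 for Hoxd. The median log2 fold change without a filter was 0.33 for Hoxa, -0.40 for Hoxb, 0.11 for Hoxc and 0.13 for Hoxd, against -0.10 for all genes.

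Hoxa9 was at 0.42 and 0.43 TPM in PRC1ctrl and at 2.33 and 3.12 TPM in PRC1cKO. Hoxa10 was at 0.63 and 1.26 TPM and then at 3.84 and 4.06 TPM. Both genes rose without overlap, by 1.38 ± 0.19 (limma adjusted p = 0.00377) and 1.37 ± 0.22 (limma adjusted p = 0.00544) on the log2 scale, that is 2.60-fold and 2.58-fold on TPM + 1. Their neighbour Hoxa7 was at 3.02 and 3.51 TPM and then at 7.14 and 7.61 TPM. Its log2 fold change of 0.98 ± 0.16 lay just under the limit of 1 at a limma adjusted p of 0.00673, and it was called after median-of-ratios scaling (1.18). Hoxa13 was at 0.66 and 0.56 TPM and then at 1.57 and 1.59 TPM (log2 fold change 0.68, limma adjusted p = 0.0243). Hoxa11, with 0.21 and 0.20 TPM and then 0.55 and 0.49 TPM, was not tested but its groups did not overlap either.

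The anterior Hoxa genes had smaller differences. Hoxa3 was at 3.22 and 3.75 TPM and then at 3.93 and 5.18 TPM (0.30, limma adjusted p = 0.270), and Hoxa4 at 0.96 and 1.32 TPM and then at 1.91 and 1.9 TPM (0.45, limma adjusted p = 0.107). Both were higher in each PRC1cKO library without passing the test. Hoxa2, at 0.30 and 0.72 TPM and then at 0.78 and 0.86 TPM, was not tested.

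In Hoxb the differences of Hoxb2 and Hoxb3 were the largest among the tested genes. Hoxb2 was at 7.86 and 9.13 TPM in PRC1ctrl and at 2.95 and 2.43 TPM in PRC1cKO. Hoxb3 was at 7.35 and 9.26 TPM and then at 2.50 and 3.08 TPM. Both fell without overlap, by 1.36 ± 0.18 (limma adjusted p = 0.00323) and 1.29 ± 0.19 (limma adjusted p = 0.00432) on the log2 scale. Hoxb4, next to Hoxb3, was at 7.01 and 9.54 TPM and then at 5.93 and 6.16 TPM (log2 fold change -0.38, limma adjusted p = 0.157). Hoxb7 was at 20.03 and 20.3 TPM and then at 15.6 and 14.1 TPM (-0.42, limma adjusted p = 0.0523), and Hoxb8 at 5.50 and 8.10 TPM and then at 2.45 and 4.17 TPM (-0.86, limma adjusted p = 0.0473). Hoxb6 was at 1.96 and 1.92 TPM and then at 0.87 and 1 TPM (-0.60, limma adjusted p = 0.0369) and missed the fold limit. These 4 were lower in both PRC1cKO libraries and not called. Hoxb9 overlapped, and Hoxb13, at 1.18 and 1.31 TPM and then at 2.59 and 1.88 TPM, was the 1 Hoxb gene with both values higher (limma adjusted p = 0.0833).

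Of the other clusters no gene was called. Hoxc4 was at 5.69 and 8.52 TPM in PRC1ctrl and at 3.57 and 3.2 TPM in PRC1cKO, with a log2 fold change of -0.87 ± 0.21 that missed the fold limit (limma adjusted p = 0.0234). Hoxc9 overlapped, at 3.99 and 6.88 TPM against 7.18 and 6.35 TPM. Hoxd8 was at 6.63 and 5.68 TPM and then at 5.06 and 4.17 TPM (limma adjusted p = 0.171). Hoxc8, Hoxc10 and Hoxd9 were higher in both PRC1cKO libraries with log2 fold changes of 0.28, 0.31 and 0.39, none of which passed. Some paralogs had unlike values in the same libraries, a contrast that was not tested. In group 9, Hoxa9 rose by 1.38 while the differences of Hoxb9, Hoxc9 and Hoxd9 were 0.16, 0.31 and 0.39 on the log2 scale and not called. In group 3, the difference was 0.30 for Hoxa3 and -1.29 for Hoxb3. Hoxd3, too low for the test, was at 0.73 and 0.76 TPM and then at 0.21 and 0.62 TPM. In group 13, Hoxa13 and Hoxb13 went the same way, with differences of 0.68 and 0.52, and neither was called. Hoxc13 overlapped and Hoxd13 was higher in both PRC1cKO libraries, and neither was tested.

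The calls after Win18446 changed when single libraries were left out. Hoxa9 was under 1 TPM in both PRC1ctrl libraries, so without either PRC1cKO library it missed the filter by construction, while Hoxa10 was still called higher. Without the first PRC1ctrl library, 4 genes were called lower (Hoxb2, Hoxb3, Hoxb8 and Hoxc4), and without the second 3 were called higher (Hoxa7, Hoxa9 and Hoxa10). With all 12 libraries in the fit, which there too shares the variance across both library methods, Hoxa9 and Hoxb2 were not called (limma adjusted p = 0.0574 and 0.247). Of the exonic bases of Hoxb3 and Hoxb2, 52.9% and 27.3% also lie in exons of Hoxb3os on the other strand, which was at 0.11 to 0.94 TPM in these 4 libraries. Hoxa9 shares 1.52% of its exonic bases with Mir196b on its own strand, and Hoxa10 shares none.

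**Figure D4:**
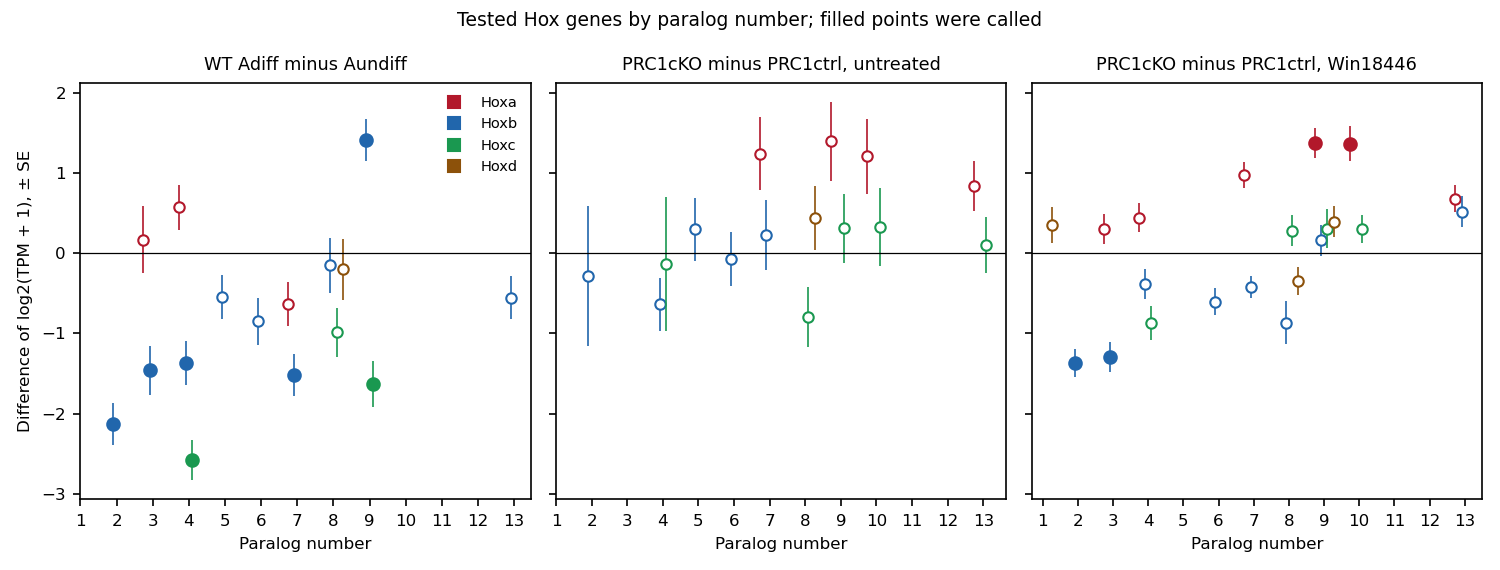
Difference of mean log2(TPM + 1) with its SE (vertical axis) for tested Hox genes by paralog number (horizontal axis) and cluster (colour) in the 3 comparisons, where filled points were called. The fallen Hoxb and Hoxc genes of WT lie between -1.37 and -2.58, and after Win18446 Hoxa9 and Hoxa10 lie at 1.38 and 1.37 while Hoxb2 and Hoxb3 lie at -1.36 and -1.29.

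Marker lists after Win18446 were as follows, and their part in the Hox values was not tested. Markers of undifferentiated spermatogonia summed to 335 to 398 TPM in PRC1ctrl and 244 to 285 TPM in PRC1cKO with none of 4 called, and those of differentiating spermatogonia to 19.2 to 23.3 TPM and 37.5 to 40.0 TPM with 2 of 3 called higher. Sertoli cell markers summed to 135 to 218 TPM and 144 to 235 TPM, with none of 8 called. Leydig cell markers summed to 82.1 to 397 TPM and 20.6 to 73.2 TPM, with none of 6 called, and macrophage markers to 33.1 to 46.8 TPM and 84.0 to 132 TPM, with 1 of 6 called higher. That 1 was Cd74, at 19.6 and 15.7 TPM and then at 115 and 70.4 TPM, while Cd68 was lower in both PRC1cKO libraries (4.88 and 6.02 TPM, then 2.88 and 3.79 TPM) and Lyz2 overlapped (18.8 and 10.6 TPM, then 11.5 and 7.93 TPM). Spermatid markers summed to 123 to 135 TPM and 23.3 to 25.5 TPM, with 3 of 6 called lower and Prm2 and Acrv1 at 0 in both PRC1cKO libraries. Endothelial markers summed to 10.1 to 10.8 TPM and 8.28 to 8.42 TPM, and peritubular myoid markers to 24.3 to 39.6 TPM and 30.2 to 38.2 TPM, with none called in either list.

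Whether the PRC1cKO difference itself changed with treatment was tested with an interaction term over the 8 PRC1 libraries, where treatment includes the library method. Of 24 Hox genes tested none passed (limma, Benjamini-Hochberg over 18354 genes), where 2.77% of all tested genes passed upward and 5.03% downward. An unadjusted limma p under 0.05 was found for 4541 of the 18354 genes and for 4 of the 24 Hox genes. The smallest adjusted p was 0.0514, for Hoxb3, whose PRC1cKO difference was lower by 1.28 ± 0.30 on the log2 scale after Win18446. In the untreated PRC1ctrl libraries Hoxb3 was at 0.15 and 0.03 TPM, and Hoxb3os, which overlaps it on the other strand, was at 1.39 and 1.32 TPM. Hoxc8 had the largest positive term (1.08 ± 0.30, limma adjusted p = 0.0780), followed by Hoxa4 (0.63, limma adjusted p = 0.193) and Hoxd9 (0.41, limma adjusted p = 0.475). Below zero, Hoxb2 (-1.08, limma adjusted p = 0.565) and Hoxb8 (-1.03, limma adjusted p = 0.245) followed Hoxb3. For Hoxa7, Hoxa9 and Hoxa10 the terms were -0.27 ± 0.42, -0.02 ± 0.48 and 0.16 ± 0.45, so the precision was too low to tell whether their PRC1cKO differences were alike with and without treatment. Without the second untreated PRC1ctrl library, the one with 5.72 TPM of Hoxb2, that gene passed (-2.40, limma adjusted p = 0.0337).

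Position along the cluster was described by Spearman's rho between paralog number and log2 fold change without a filter. For Hoxa it was 0.67 over 10 genes in the untreated comparison and 0.61 over 11 genes after Win18446, which use different libraries. For Hoxb, Hoxc and Hoxd, over 10, 9 and 9 genes, it was 0.49, 0.47 and -0.10 untreated and 0.44, 0.43 and 0.33 after Win18446. In WT it was -0.44 for Hoxa, 0.56 for Hoxb, 0.70 for Hoxc and -0.10 for Hoxd. These values are across genes that share libraries and, in part, neighbours.

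HOX proteins bind DNA with TALE homeodomain proteins of the PBX, MEIS and PKNOX families, and 9 such genes were followed. In WT, Meis3 was called higher among the 7 tested. It was at 0 and 0.13 TPM and then at 1.41 and 2.14 TPM (1.37 ± 0.30, limma adjusted p = 0.0153). In the untreated comparison none of 7 tested genes was called, and after Win18446 none of 8. The most abundant, Pbx2, was at 110 to 130 TPM in the 4 Win18446 libraries and at 3.85 to 13.9 TPM in the untreated PRC1 libraries, which were made by the other method.

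The ParaHox and Evx genes are the nearest relatives of the Hox clusters, and 8 were followed. Cdx1, which itself activates Hox genes in the embryo, was at 1.00 and 1.28 TPM in PRC1ctrl and at 5.48 and 6.18 TPM in PRC1cKO after Win18446. The groups were separate and the gene was called (log2 fold change 1.68 ± 0.18, limma adjusted p = 0.00260), and it also passed the interaction test (1.57, limma adjusted p = 0.0178), with 0 to 0.10 TPM in the untreated PRC1 libraries. Pdx1, a gene of the pancreas, was at 3.52 and 4.55 TPM in WT Aundiff and at 0 and 0.32 TPM in Adiff (-2.12 ± 0.30, limma adjusted p = 0.00391). Cdx2, Cdx4, Gsx1, Gsx2, Evx1 and Evx2 stayed below 0.50 TPM in all 12 libraries and were not tested.

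Inside the 4 clusters, 46 further genes were annotated, mostly noncoding. Of these, 18 were listed at 0 throughout and 14 reached 1 TPM in some library. The 6 microRNA genes with a Mir name were listed at 0 in all libraries. Neither library method was described as one for small RNA, so these values do not tell whether the microRNAs were present. Hotairm1, a noncoding RNA of the Hoxa cluster on the plus strand, was at 3.41 and 1.87 TPM in PRC1ctrl and at 7.96 and 7.59 TPM in PRC1cKO after Win18446, and it rose (log2 fold change 1.3 ± 0.23, limma adjusted p = 0.00812). In the untreated libraries it was at 5.35 and 8.88 TPM and then at 14.6 and 18.04 TPM, without overlap and not called (1.12, limma adjusted p = 0.324). Hotairm1 shares 23.8% of its exonic bases with small annotated RNAs on its own. Hoxa11os, antisense to Hoxa11, was at 0.58 and 0.39 TPM and then at 1.61 and 2.03 TPM after Win18446 (0.92, limma adjusted p = 0.0117). Gm27605, in Hoxb, was called lower in WT Adiff (5.44 and 20.1 TPM, then 0 in both, limma adjusted p = 0.00540), and Gm28309, in Hoxd, passed the interaction test (1.65, limma adjusted p = 0.0222) and shares 89.7% of its exonic bases with Hoxd10 and Hoxd11 on its own strand.

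Outside the clusters, the 3 nearest protein-coding genes on each side gave 24 flanking genes, of which Cbx1 was called higher and Skap1 lower in WT Adiff among 20 tested. None of 20 was called in the untreated comparison, and Ttll6 was called lower in PRC1cKO after Win18446 among 21. Both PRC1cKO libraries were above both PRC1ctrl libraries for 7 flanking genes and below them for 5 untreated, and for 3 and 14 after Win18446. Of all genes with any TPM, 21.1% and 14.6% did so untreated and 14.5% and 40.4% after Win18446.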

How the data were processed

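RNA-seq of 12 libraries in 6 groups of 2 was used. Per the labels and the study's methods, the authors trimmed reads (Trim Galore 0.6.6) and deposited TPM per gene, computed with RSEM 1.3.3 on GRCm38; the annotation and strand setting given to RSEM are not given in the sources used here. No deposited column was left unmapped. Here, log2(TPM + 1) was fitted with limma 3.58.1 (R 4.3.3, trend and robust moderation), one fit for each pair of groups and one interaction fit over the 8 PRC1 libraries, on genes with at least 1 TPM in at least 2 libraries. P-values were two-sided and Benjamini-Hochberg adjusted over all genes tested. With 2 against 2 libraries an exact permutation test cannot go below 0.33. Calls needed an adjusted p under 0.05 and a log2 fold change beyond 1 (interaction: adjusted p only). The script was tested on simulated data. Alternatives were the pseudocount (0.1), filters, scaling, a replicate block, all 12 libraries in the fit, plain moderation and leaving out each library. The Hox genes and the lists (TALE, ParaHox and Evx, cell markers) were chosen with earlier results of these data known. Named Hox genes were those called, those with a group mean of at least 5 TPM, the 3 largest changes each way per comparison, and, among a few set by name, Hoxa2, Hoxa3, Hoxa9, Hoxa10 and Hoxa11. Others named for their direction, level or place were chosen after their values were seen. TPM keeps no depth, so counting error is unknown. 2 genes, 1 of them a Hox gene, are counted but not reported here.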

Additional observations from a re-analysis of the deposited data

Results flagged for a closer look

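4 members had both PRC1cKO libraries on one side of both PRC1ctrl libraries without treatment and on the other side after Win18446. They were too low for the interaction fit, and this difference between treatments was not tested there. Hoxb1 differed by 0.32 TPM (PRC1cKO minus PRC1ctrl, means of 2 libraries) without treatment, with 0.05 and 0.14 TPM against 0.31 and 0.52 TPM, and was at 0.64 and 0.64 TPM against 0.38 and 0.54 TPM after it. Hoxc6 differed by 0.075 TPM, from 0 in both PRC1ctrl libraries, and was at 0.78 and 1.03 TPM against 0.30 and 0.58 TPM after treatment. Hoxd12 differed by -0.2 TPM, which rested on 0.39 TPM in 1 PRC1ctrl library, and was at 0.03 and 0.03 TPM against 0.10 and 0.15 TPM after treatment. Hoxd11 differed by -0.325 TPM, with 0.43 and 0.28 TPM against 0.02 and 0.04 TPM, and was at 0.05 and 0.07 TPM against 0.49 and 0.41 TPM after treatment. Without the filter on low values, the limma interaction term had adjusted p-values of 0.229, 0.254, 0.403 and 0.0513 for these genes in that order. Hoxd11 shares 10.8% of its exonic bases with Gm28309 on its own strand. Without treatment Gm28309 was at 1.42 and 1.57 TPM in PRC1ctrl and at 0 and 0.25 TPM in PRC1cKO. After treatment it was at 0.24 and 0.07 TPM against 0.43 and 0.83 TPM, and its part in the Hoxd11 values was not tested. Treatment and library method cannot be told apart here.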

How the results depend on the processing

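With a mean TPM of at least 5, 0 Hox genes were called higher and 1 lower (Hoxb7) in WT Adiff and 0 higher after Win18446, because fewer genes were tested. The fit with all 12 libraries shares the variance of a gene across both library methods. It called 2 higher in untreated PRC1cKO, 1 higher and 1 lower after Win18446, and 1 lower in the interaction (Hoxb3, limma adjusted p = 0.0451). A pseudocount of 0.1 gave 4 higher after Win18446. With a replicate block, 3 were called higher in untreated PRC1cKO (Hoxa7, Hoxa9 and Hoxa10, limma adjusted p = 0.0157, 0.0171 and 0.0346), the block changed no other Hox call, and calls over all genes went from 301 to 2172 untreated. The labels give shared numbers only, and deviations of same-numbered libraries correlated at 0.158 (WT), 0.381 (untreated) and 0.122 (Win18446), so the block was not made the main design. Leaving out 1 library gave 0 to 1 higher and 2 to 7 lower in WT, 1 to 3 higher and 2 to 4 lower after Win18446, and 0 to 1 lower in the interaction. Directions turned for Hoxb7 untreated (-0.034, median-of-ratios scaling), Hoxb2 untreated (0.34, pseudocount 0.1), and the interaction terms of Hoxa9 (0.41, pseudocount 0.1) and Hoxa7 (0.22, median-of-ratios scaling). Leaving out 1 library turned others, none of them called. In WT, Hoxa3 ranged from -0.18 to 0.63, Hoxb8 from -0.50 to 0.20 and Hoxd8 from -0.66 to 0.26. Untreated, Hoxb7 ranged from -0.072 to 0.54 and Hoxc4 from -1.29 to 1.03, and after Win18446 Hoxc9 from -0.023 to 0.64. Interaction terms ranged from -0.24 to 0.56 (Hoxa10), -0.66 to 0.12 (Hoxa7), -0.39 to 0.35 (Hoxa9) and -2.40 to 0.24 (Hoxb2). With median-of-ratios scaling the mean Hox sums were 60.1 (WT Aundiff), 23.9 (WT Adiff), 81.0 (PRC1ctrl), 93.7 (PRC1cKO), 63.9 (PRC1ctrl, Win18446) and 70.0 (PRC1cKO, Win18446), so that after Win18446 the PRC1cKO mean was above the PRC1ctrl mean. Where not stated, the cause was not tested. A lone library left in a group was assumed to vary like the other group.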
